A study of Mus musculus with 60 samples.

Results

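The genes described here encode 7 receptors and receptor components of the neurotrophin and glial cell line-derived neurotrophic factor (GDNF) families, Ntrk2, Ntrk3, Ngfr, Ret, Gfra1, Gfra2 and Gfra3, and 2 of their ligands, Bdnf and Gdnf. They were taken as a list of names, and all 9 were found among the 21887 protein-coding genes of a RefSeq table for the mouse assembly GRCm38.p6. A peak was counted for a gene when it overlapped the gene body or the 10 kb on either side, by position alone, so a peak may serve a neighbouring gene. These 9 windows covered 1393.9 kb in all, and each gene was longer than the median protein-coding gene of 17.2 kb.

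The series profiled chromatin in L4 to L6 dorsal root ganglia, which hold the cell bodies of sensory neurons, from C57BL/6 mice 6 to 8 weeks old and 24 h after an operation. The operations were sciatic nerve axotomy (SNA), which cuts the peripheral branch, the sham operation for it (Sham), dorsal column axotomy (DCA), which cuts the central branch in the spinal cord, and laminectomy alone (Lam), the control for DCA. No group carried a transgene or a drug, and no uninjured group without surgery is in the labels used here. ChIP-seq of H3K9ac and H3K27ac, marks of active promoters and enhancers, and of H3K27me3, a mark of repressed chromatin, used 2 samples a surgery, each a pool of 10 mice, with 2 inputs, and ATAC-seq, which reports DNA open to a transposase, used 3 samples of 1 mouse each. Of the 60 samples, 24 were ChIP, 24 input and 12 ATAC. The deposited data are 16 peak lists, 1 per assay and operation, each from pooled replicates. A difference between lists therefore has no replicate check and no p-value. The 95% Wilson intervals below cover counting error in 1 list only. They treat peaks as independent, although many lie in the same few long genes, so they may be too narrow. Whole ganglia were used, so the share of a cell type and the chromatin state within it cannot be told apart.

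Neurotrophins are secreted factors that bind Trk receptor tyrosine kinases and, with lower selectivity, the p75 receptor encoded by Ngfr. TrkB, encoded by Ntrk2, responds to BDNF, and TrkC, encoded by Ntrk3, to neurotrophin-3. The GDNF family acts through the kinase RET, which is recruited by a lipid-anchored co-receptor: GFRα1 for GDNF, GFRα2 for neurturin and GFRα3 for artemin. In dorsal root ganglia these receptors mark different classes of sensory neuron, and TrkB and p75 are also found on glia.

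The 250 bases before a RefSeq transcript start were at hand for 5 of the genes (12 starts in all), and those of Bdnf, Gdnf, Ngfr and Ntrk2 that carry results below are shown first. They are the places where open chromatin stood in all 4 surgeries, or where it met or missed a start. Each is written 5′ to 3′ on the strand of its gene, from RefSeq (GRCm38.p6), in lower case, with the motifs found in capitals. For Ntrk2 only the 153 bases outside the annotated gene are printed.

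Ntrk2 start, chr13:58806319-58806471, plus strand: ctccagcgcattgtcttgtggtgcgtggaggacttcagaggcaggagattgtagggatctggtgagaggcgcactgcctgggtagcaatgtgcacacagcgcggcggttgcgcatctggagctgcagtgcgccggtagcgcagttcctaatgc

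Ngfr start, chr11:95587699-95587948, minus strand: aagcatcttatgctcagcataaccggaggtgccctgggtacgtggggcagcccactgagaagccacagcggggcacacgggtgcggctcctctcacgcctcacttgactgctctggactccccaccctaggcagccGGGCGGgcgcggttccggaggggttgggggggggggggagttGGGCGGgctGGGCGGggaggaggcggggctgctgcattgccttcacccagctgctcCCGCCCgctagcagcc

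Bdnf start 1, chr2:109674450-109674699, plus strand: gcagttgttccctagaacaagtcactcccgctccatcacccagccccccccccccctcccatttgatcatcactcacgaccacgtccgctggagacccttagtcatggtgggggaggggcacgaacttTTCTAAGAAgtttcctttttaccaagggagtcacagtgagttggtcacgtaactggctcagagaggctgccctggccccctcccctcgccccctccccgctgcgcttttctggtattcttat

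Bdnf start 3, chr2:109692186-109692435, plus strand: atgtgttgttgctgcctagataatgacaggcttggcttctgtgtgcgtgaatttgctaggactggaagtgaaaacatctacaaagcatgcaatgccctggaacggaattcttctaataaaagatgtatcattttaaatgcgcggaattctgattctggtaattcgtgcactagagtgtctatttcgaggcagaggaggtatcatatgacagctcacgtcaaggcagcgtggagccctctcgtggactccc

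Bdnf start 5, chr2:109694159-109694408, plus strand: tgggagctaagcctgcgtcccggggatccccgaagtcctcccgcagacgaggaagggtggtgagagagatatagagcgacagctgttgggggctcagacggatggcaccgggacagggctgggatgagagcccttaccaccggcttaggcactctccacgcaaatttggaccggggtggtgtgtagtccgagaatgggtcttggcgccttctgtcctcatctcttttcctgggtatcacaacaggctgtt

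Gdnf start 1, chr15:7809798-7810047, plus strand: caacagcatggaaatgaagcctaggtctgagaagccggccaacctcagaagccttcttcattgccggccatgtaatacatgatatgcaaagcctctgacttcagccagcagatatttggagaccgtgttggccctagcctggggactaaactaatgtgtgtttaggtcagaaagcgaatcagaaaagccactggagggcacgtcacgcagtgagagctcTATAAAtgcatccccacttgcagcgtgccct

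Motifs were searched on both strands: AP-1 (TGANTCA), CRE (TGACGTCA), RUNX (TGTGGTT), STAT (TTCNNNGAA), SP (GGGCGG) and the TATA box (TATAAA). Counted from the start, whose first base before it is -1, the Ngfr sequence held SP matches beginning at -114, -72, -63 and -16. Bdnf start 1 held a STAT match at -122, and Gdnf start 1 a TATA box at -31. Of the windows not printed, Bdnf start 2 held AP-1 at -152 and SP at -61 and -43, and Bdnf start 4 SP at -215. AP-1 was thus in 1 of the 12 windows, and CRE and RUNX in 0. No motif matched in the windows of Ntrk2 and of Bdnf starts 3 and 5, and no matches overlapped each other. Among 32851 promoter windows of 250 bases in the table, 32.7% held SP, 7.02% STAT, 12.4% the TATA box, 6.75% AP-1, 1.55% CRE and 4.40% RUNX. A match is a stretch of letters and was not tested as a binding site.

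The lists differ in size and in kind, which bears on every count below. The H3K9ac lists held between 50332 peaks (Sham) and 89647 (DCA), the H3K27ac lists between 43803 (Sham) and 75824 (SNA), the H3K27me3 lists between 90011 (DCA) and 154055 (Lam), and the ATAC lists between 153556 (Sham) and 174605 (SNA). Of the 5000 strongest H3K27ac peaks, 22.1% lay on open chromatin by ATAC after the matching operation in Sham and 88.3% in SNA, and 58.5% in Lam and 35.7% in DCA, so the strongest H3K27ac peaks of Sham and SNA lay in different kinds of place. At most 1.31% of the peaks of an H3K27me3 list had a q of at most 0.05, and none of those at the 9 genes did. All 8 sensory neuron markers listed had an ATAC peak within 1 kb of a gene end in every list, where 69.4% to 71.2% of all genes had one. So did 5 to 7 of 8 markers of satellite glia and Schwann cells and 5 to 6 of 8 of macrophages. The numbers were 2 to 4 of 6 for endothelial cells and fibroblasts and 2 to 3 of 6 for hepatocytes. With so few markers and so common a peak, this is a weak check of the tissue. H3K9ac stood at an end of 49.1% to 59.3% of all genes, of 1 to 3 of the 8 neuron markers and of 5 to 7 of 8 glial markers. It stood at 1 to 4 of 8 macrophage markers, 2 to 4 of 6 endothelial and fibroblast markers and 0 to 2 of 6 hepatocyte markers. Whether this bears on the H3K9ac results of the neuronal genes below was not tested.

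In order of Sham, SNA, Lam and DCA, the 9 genes together held 28, 48, 25 and 71 peaks of H3K9ac, 35, 54, 50 and 30 of H3K27ac, 109, 120, 160 and 80 of H3K27me3, and 186, 236, 218 and 205 of ATAC. H3K9ac peaks were most numerous in the 2 axotomy lists, and H3K27me3 peaks fewest after DCA, as they also were in the whole lists. As a share of the list, in the same order, H3K9ac peaks at the 9 genes were 0.0556%, 0.0643%, 0.0493% and 0.0792%. H3K27me3 peaks were 0.0887%, 0.0847%, 0.104% and 0.0889%, so their share was not lowest after DCA. Ntrk2, Ntrk3 and Gfra1, the longest genes, held most of the ATAC peaks. Ret, Bdnf and Gdnf had no H3K9ac peak in any list, and Bdnf had none of H3K27ac. Of the 21887 genes, 12230 held 2 or more H3K9ac peaks in Sham or SNA and 13254 in Lam or DCA. For H3K27ac the numbers were 12430 and 11885. The share of all genes with no such peak in any list was not computed. Gene length is also left out of these numbers, and Ret (46.0 kb), Bdnf (52.3 kb) and Gdnf (27.5 kb) are longer than the median gene.

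**Figure D1:**
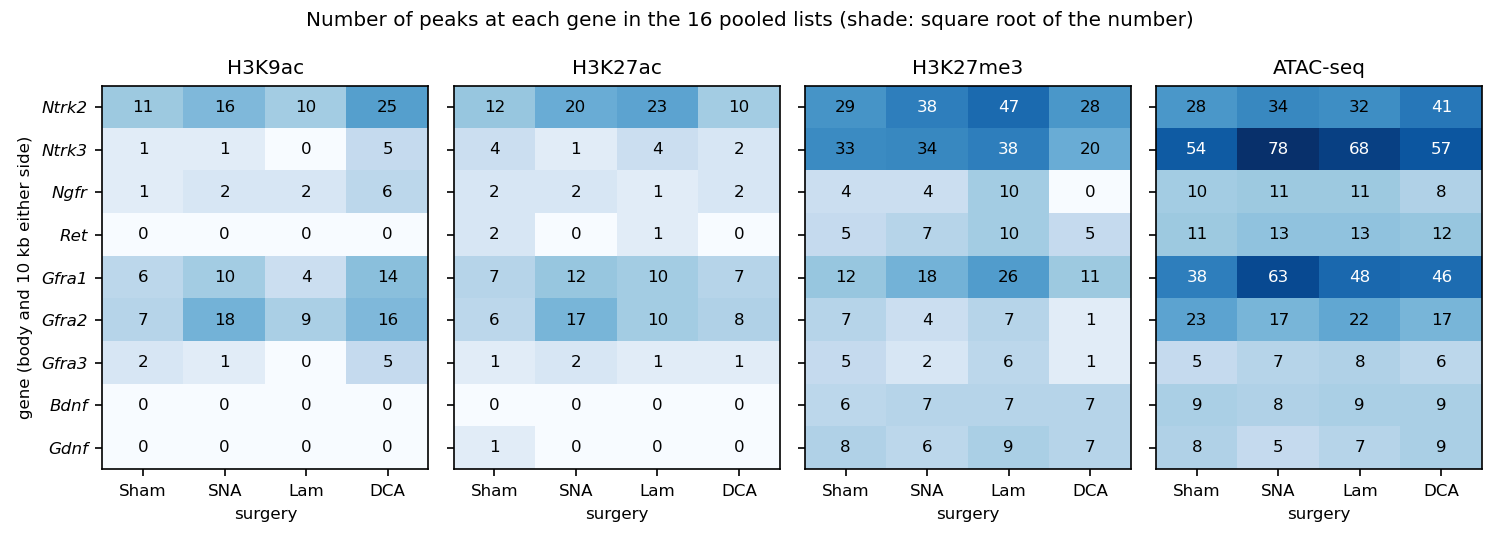
Number of peaks overlapping each gene and the 10 kb on either side (rows) in each of the 16 pooled lists (columns, grouped by assay), with darker cells for larger numbers. Ntrk3 ranges from 54 to 78 ATAC peaks but has at most 5 of H3K9ac, and the H3K9ac rows of Ret, Bdnf and Gdnf are at 0 throughout.

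A gene was called higher in a list that held at least 2 more peaks and at least 2 times as many as the list compared, and lower in the reverse case, and it could be called with 2 or more peaks in either list. For H3K9ac, 5 of the 9 genes could be called in SNA against Sham. Gfra2 was higher and no gene lower, where 22.8% of all genes that could be called were higher and 2.47% lower. In DCA against Lam 5 of 6 genes were higher (Ntrk2, Ntrk3, Ngfr, Gfra1 and Gfra3) and none lower, against 37.7% and 2.16% of all genes. With every list cut to its strongest peaks, as many as the shortest H3K9ac list holds, only Gfra3 of 5 genes was called higher in DCA. At those sizes 11.6% of all genes were higher. In SNA Gfra2 was then no longer called, with 11 peaks against 7. Only Gfra3 of 4 genes was called lower there, against 12.1% of all genes, and 8.06% of all genes were higher. Ntrk2 held 11 peaks in DCA and 10 in Lam at equal sizes, in place of 25 and 10. Between the 2 control operations (Lam against Sham) none of 5 genes was higher and Gfra3 was lower, against 12.8% and 12.2%.

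For H3K27ac, SNA against Sham called Gfra2 higher and Ntrk3 and Ret lower of 7 genes, against 37.5% higher and 5.73% lower of all genes. Ntrk2 and Ntrk3 were lower in DCA than in Lam, of 5 genes, and none was higher, against 24.5% lower and 3.45% higher. None of 6 genes was called in Lam against Sham, where 29.4% of all genes were higher and 3.51% lower. With equal list sizes Gfra2 held 7 H3K27ac peaks in SNA and 6 in Sham, and Ntrk2 10 in DCA and 11 in Lam, so neither was called. Ntrk3 and Ret, 2 of 6 genes, kept their lower calls in SNA with equal sizes, where 14.7% of all genes were lower. Among peaks on open chromatin, however, Ret had none in either list and Ntrk3 had 0 in SNA and 1 in Sham.

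For H3K27me3 all 9 genes could be called. In SNA against Sham Gfra3 was lower and none higher, against 22.3% lower and 19.0% higher of all genes. In DCA against Lam 5 genes were lower (Ngfr, Ret, Gfra1, Gfra2 and Gfra3) and none higher, a share near the 60.9% of all genes that were lower, with 4.32% higher. In Lam against Sham Ngfr, Ret and Gfra1 were higher and none lower, against 32.3% and 9.60%. None of these calls is left when only peaks with a q of at most 0.05 are kept, since the 9 genes then hold no H3K27me3 peak.

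No gene was called for ATAC in any of the 3 comparisons, although all 9 could be called. Over all genes, 13.1% were higher and 4.66% lower in SNA than in Sham, 8.92% and 6.74% in DCA than in Lam, and 10.6% and 7.43% in Lam than in Sham. The largest ATAC difference in number was at Gfra1, with 63 peaks in SNA and 38 in Sham. With 9 genes and 1 list a group, differences of less than 2 times were below what the rule calls. With peaks kept only at a −log10 q of 5 or more, the rule called 3 of 7 genes higher in SNA (Ntrk2, Gfra1 and Gfra3), against 27.6% of all genes, and 5 of 8 higher in DCA (Ntrk2, Ntrk3, Ngfr, Gfra1 and Gfra3), against 16.1%, and none lower. Between the control operations the same limit called Ntrk3 lower in Lam than in Sham, 1 of 5 genes, and none higher. Of all genes 7.69% were lower and 8.92% higher there.

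Ntrk2 encodes TrkB and held 11 H3K9ac peaks in Sham and 16 in SNA, and 10 in Lam and 25 in DCA. Its most marked H3K27ac peaks lay just inside the start, in a region that spans chr13:58806584-58809175 when the 4 lists are merged. For the strongest peak of each list in that region, the authors' −log10 p was 120.5 in Sham, with a fold enrichment of 25.52 over their background, 91.1 in Lam (20.91-fold), 51.9 in DCA (15.54-fold) and 9.6 in SNA (4.50-fold). The value of SNA is that of a separate peak further inside the gene (chr13:58807879-58809175), and the SNA peak nearest the start (chr13:58807068-58807657) had a −log10 p of 4.7 and a fold enrichment of 3.08. These values belong to each list and are not a measure of change between them, and the H3K27ac lists of Sham and SNA differ as described above.

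Further inside Ntrk2, H3K9ac peaks of all 4 lists fell in the merged region chr13:58807367-58810433, with −log10 p of 5.6 in Sham and 10.2 in SNA, and 4.7 in Lam and 10.5 in DCA. Within 1 kb of the low end of the gene only DCA had an H3K9ac peak. Open chromatin reached into the bases printed for Ntrk2 in all 4 lists, over 41 of the 153 in Sham, 101 in SNA and all 153 in Lam and DCA. The ATAC peak there had a −log10 p of 4.4 in Sham and 11.4 in SNA, and 5.9 in Lam and 14.6 in DCA. A further ATAC region at chr13:58807429-58809044, inside the gene, was also present in all 4 lists.

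Inside Ntrk2, 4 other H3K9ac regions were present in all 4 lists, centred 25.8, 99.1, 135.1 and 267.2 kb from the low end of the gene. Another 3 were present in both axotomy lists and in neither control list. The strongest of these, at chr13:58975784-58976128, had −log10 p of 6.5 in SNA and 10.0 in DCA. An H3K27ac peak stood at the same place in SNA, with a −log10 p of 9.8, the strongest H3K27ac peak of Ntrk2 in that list. No Ntrk2 H3K9ac region was present in both control lists alone. H3K27ac was found in both axotomy lists alone at chr13:59004512-59004936 (2.9 in SNA, 6.3 in DCA). In both control lists alone it stood before the start, at chr13:58805685-58806089 (22.5 in Sham, 10.0 in Lam), and inside the gene at chr13:58935410-58936006 (3.7 and 4.9) and chr13:59079902-59080428 (6.3 and 7.9).

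**Figure D2:**
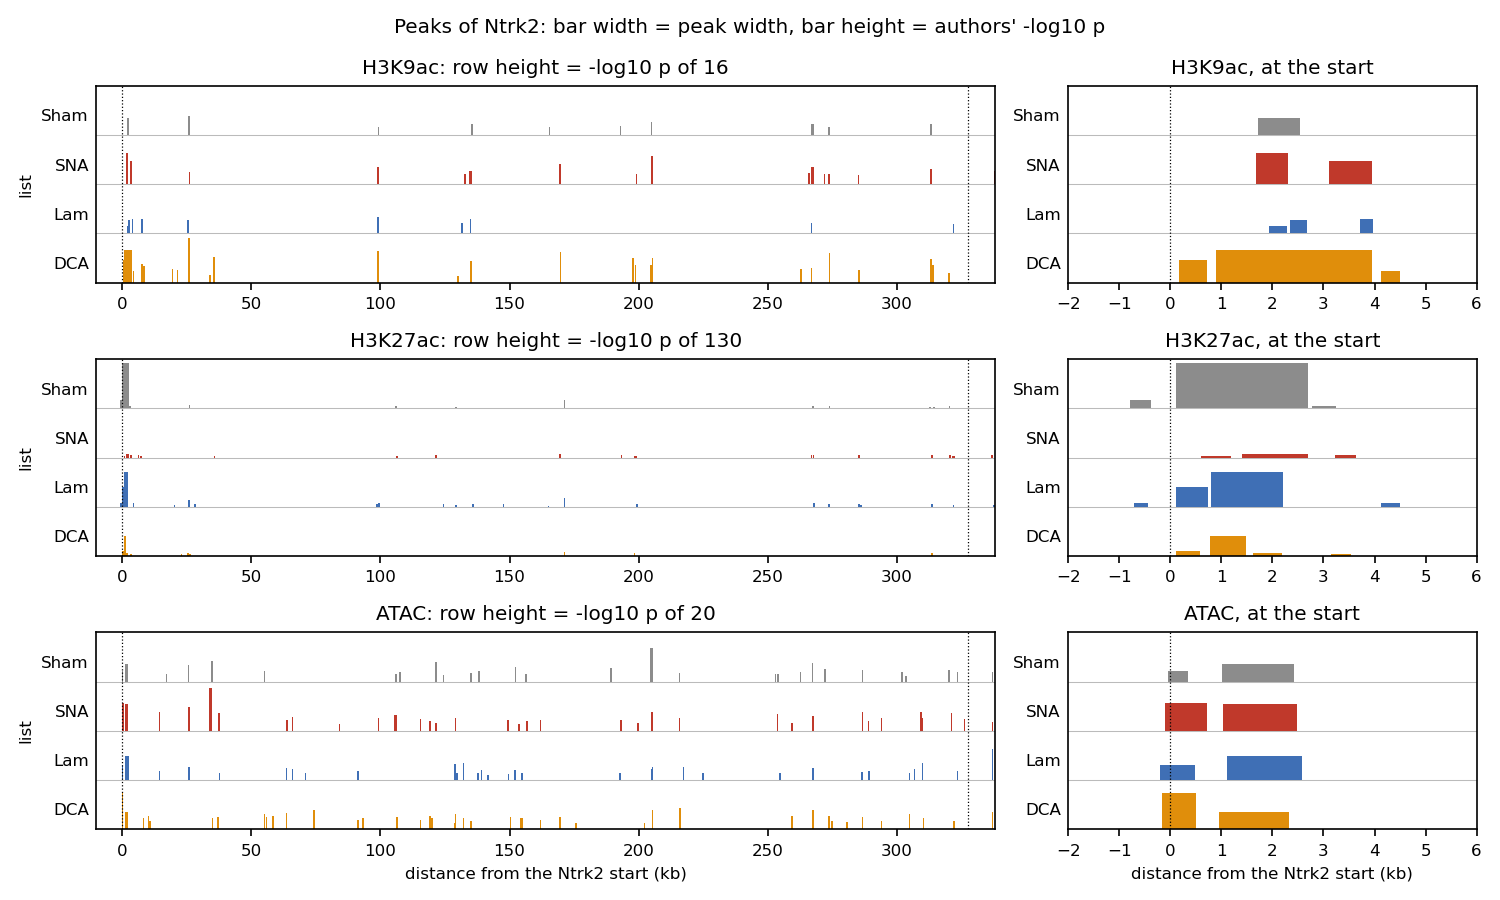
Peaks of H3K9ac, H3K27ac and ATAC over the Ntrk2 window (left, distance from the low end of the gene in kb, dotted lines at the gene ends) and near the start (right), 1 row per list, with bar height the authors' −log10 p on the scale given above each panel. Just inside the start the highest H3K27ac bar reaches 120.5 in Sham and 9.6 in SNA, ATAC bars stand at the start in all 4 rows, and H3K9ac bars lie further inside, with bars within 1 kb of the low end in DCA alone.

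Ntrk3 encodes TrkC. It is the longest of the 9 genes and held 54 ATAC peaks in Sham and 78 in SNA, and 68 in Lam and 57 in DCA. No H3K9ac, H3K27ac or ATAC peak lay within 1 kb of either end in any list. Of all genes, 49.1% to 59.3% had an H3K9ac peak there, 40.3% to 50.9% an H3K27ac peak and 69.4% to 71.2% an ATAC peak. For Ntrk3 this depends on the 1 kb limit, and which end is its start was not assigned. An H3K9ac peak of DCA, on an ATAC peak of DCA, was centred 1.54 kb inside the high end. An H3K27ac peak of Lam was centred 1.94 kb inside it. The H3K9ac peaks of Ntrk3 numbered 1, 1, 0 and 5 in the order Sham, SNA, Lam and DCA. In both axotomy lists alone H3K9ac stood at chr7:78568728-78569522, with −log10 p of 4.9 in SNA and 10.7 in DCA. A merged ATAC region that overlaps it (chr7:78568309-78569515) held peaks of all 4 lists, with −log10 p from 5.7 to 7.8. Within each surgery, however, the H3K9ac peak of SNA overlapped an ATAC peak and that of DCA did not. Of the 147 ATAC regions of Ntrk3 10 were in all 4 lists and 4 in both axotomy lists alone. The strongest of those 4, at chr7:78229112-78229936, had −log10 p of 9.9 in SNA and 8.2 in DCA.

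Ngfr encodes p75, which binds all neurotrophins and their pro-forms. Its start was open in every list. ATAC covered all 250 of the printed bases in Sham, Lam and DCA and 237 in SNA, and the −log10 p of the peak (chr11:95587188-95588014) was 8.3 in Sham and 6.6 in SNA, and 7.4 in Lam and 12.4 in DCA. H3K9ac peaks of Ngfr numbered 1 in Sham and 2 in SNA, and 2 in Lam and 6 in DCA. The strongest H3K9ac peak of any of the 9 genes was the DCA peak at chr11:95585509-95586027 inside Ngfr (−log10 p 17.4, 5.73-fold enrichment), and no other H3K9ac list had a peak in that region. Ngfr had 10 H3K27me3 peaks in Lam, 4 in Sham, 4 in SNA and 0 in DCA, each weak, with a −log10 p of at most 2.1.

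Ret encodes the kinase shared by the GDNF family. ATAC peaks numbered 11 in Sham and 13 in SNA, and 13 in Lam and 12 in DCA. At the high end of the gene, chr6:118196713-118197590, the Sham list had no ATAC peak, while its −log10 p was 18.0 in SNA, 10.2 in Lam and 12.5 in DCA. It is the strongest ATAC peak of Ret in each of those 3 lists. Because Lam holds it too, its absence in Sham does not separate axotomy from the control operations. No H3K9ac peak lay anywhere in the Ret window, and H3K27ac peaks numbered 2 in Sham and 0 in SNA, and 1 in Lam and 0 in DCA. One H3K27ac region of Ret, at chr6:118166928-118167249, was shared by the control lists, with −log10 p of 13.9 in Sham and 8.6 in Lam.

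Gfra1 encodes the GDNF co-receptor and held 38 ATAC peaks in Sham and 63 in SNA, and 48 in Lam and 46 in DCA. Its start region carried H3K9ac in all 4 lists (chr19:58454193-58456147), with −log10 p of 5.9 in Sham and 7.7 in SNA, and 5.9 in Lam and 11.7 in DCA. An H3K27ac region overlapping it (chr19:58452935-58456106) also held peaks of all 4 lists, with −log10 p of 9.5, 6.9, 7.7 and 8.7 in the same order, but only those of SNA and Lam reached the 250 bases before the start. A further H3K9ac region of all 4 lists lay inside Gfra1 at chr19:58395532-58396519, with −log10 p of 6.7 in Sham and 6.5 in SNA, and 5.9 in Lam and 8.1 in DCA. H3K27ac stood in both axotomy lists alone at chr19:58438743-58439025 (8.4 in SNA, 9.0 in DCA) and in both control lists alone at chr19:58335066-58335548 (24.2 in Sham, 15.9 in Lam). The strongest H3K27ac peak of Gfra1 in Sham, Lam and DCA lay inside the gene, 185.0 to 185.2 kb from the low end, with −log10 p of 40.2 in Sham, 20.5 in Lam and 33.3 in DCA. SNA had no peak there, and the peak lay on open chromatin in DCA but not in Sham or Lam. The strongest Sham H3K27ac peaks of Ntrk3 (−log10 p 29.4), Ngfr (19.7), Ret (17.5) and Gfra3 (17.7) likewise overlapped neither an ATAC nor an H3K9ac peak of Sham. Of 109 ATAC regions, 7 were in all 4 lists, 3 in both axotomy lists alone and 0 in both control lists alone.

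Gfra2 encodes the neurturin co-receptor. It held 7 H3K9ac peaks in Sham and 18 in SNA, and 9 in Lam and 16 in DCA, and 6, 17, 10 and 8 of H3K27ac. Both marks were thus most numerous in SNA, while ATAC peaks numbered 23, 17, 22 and 17, fewer in the axotomy lists than in the control lists. The low end of the gene was open in all 4 lists (chr14:70888954-70890188), with ATAC −log10 p of 9.4 in Sham and 17.8 in SNA, and 12.9 in Lam and 9.0 in DCA. H3K27ac peaks of all 4 lists fell in a merged region there (chr14:70889992-70892120), with −log10 p of 7.2, 5.9, 16.1 and 7.9. H3K9ac within 1 kb of that end was missing in Sham and had a −log10 p of 2.2 in SNA, against 6.1 in Lam and 15.0 in DCA. Another 3 H3K9ac regions inside Gfra2 were in both axotomy lists alone, with −log10 p from 3.5 to 4.7 in SNA and from 6.2 to 7.0 in DCA. H3K9ac regions of all 4 lists lay at chr14:70894336-70896507, with −log10 p from 4.8 in Sham to 14.4 in DCA, and at chr14:70899367-70900872, from 3.5 to 4.6. H3K27ac was in both control lists alone at chr14:70971590-70971971 (4.8 in Sham, 5.1 in Lam).

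Gfra3 encodes the artemin co-receptor, which marks peptidergic nociceptors. Its high end was open in all 4 lists, with ATAC −log10 p of 6.8 in Sham and 6.9 in SNA, and 7.6 in Lam and 10.2 in DCA. H3K9ac stood at that end in both axotomy lists alone, with −log10 p of 3.6 in SNA and 6.4 in DCA. Its H3K9ac peaks numbered 2 in Sham and 1 in SNA, and 0 in Lam and 5 in DCA, and with equal list sizes 4 were left in DCA against 0 in Lam. H3K27ac peaks numbered 1, 2, 1 and 1.

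**Figure D3:**
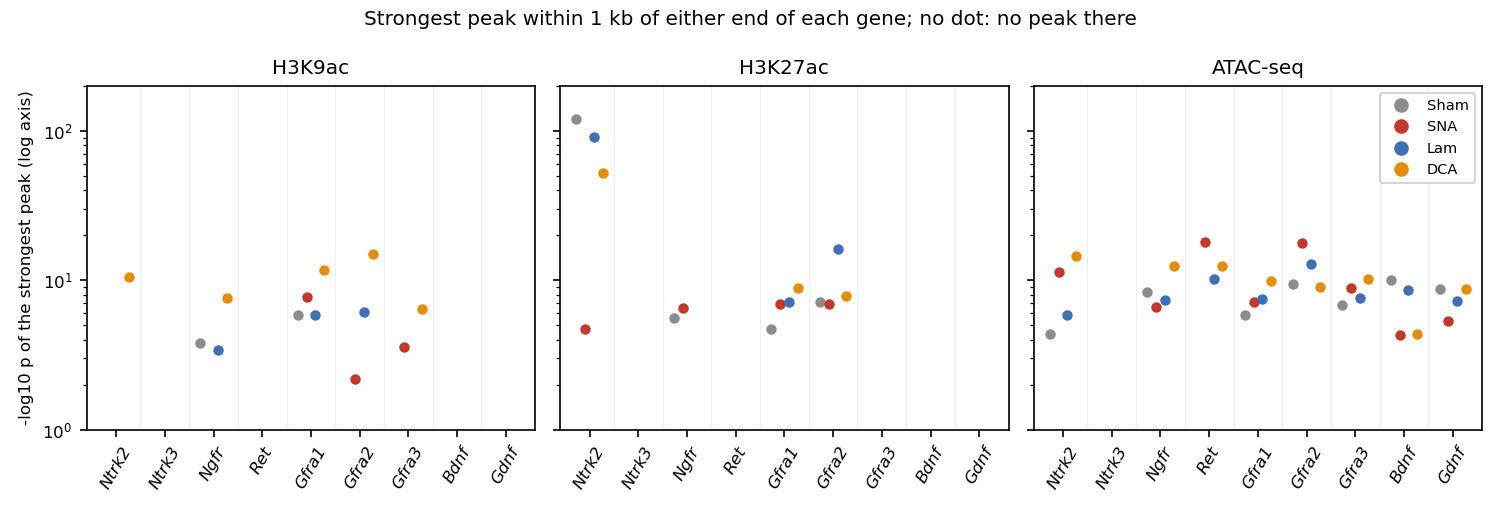
Authors' −log10 p of the strongest peak within 1 kb of either end of each gene (log axis), 1 dot per list, coloured by surgery. ATAC dots stand at every gene but Ntrk3, and Ret alone among those 8 lacks the Sham dot, while H3K9ac dots are missing at Ntrk3, Ret, Bdnf and Gdnf. Over all genes, 69.4% to 71.2% had an ATAC peak at an end and 49.1% to 59.3% an H3K9ac peak.

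The 2 ligand genes were alike in several points, of which the lack of H3K9ac peaks was shared by Ret and by Ntf3, Ntf5 and Gfra4 of the same pathways. Bdnf, made by peptidergic sensory neurons, and Gdnf, a survival factor from peripheral targets and glia, had no H3K9ac peak, and H3K27ac was limited to 1 Gdnf peak in Sham. Both genes had open chromatin within 1 kb of the low end, where start 1 lies, in all 4 lists. Weak H3K27me3 regions, wide when the 4 lists are merged, lay over the same ends. Other starts differed: no ATAC peak met Bdnf start 6 in any list, start 7 had one in DCA alone and Gdnf start 2 in SNA alone. The H3K27me3 region over the low end of Bdnf spanned 8203 bp (chr2:109671660-109679862) and that of Gdnf 18509 bp (chr15:7803107-7821615). Each was present in all 4 lists, with −log10 p of 0.8, 1.6, 0.7 and 0.9 at Bdnf and 0.9, 0.7, 0.7 and 0.8 at Gdnf in the order Sham, SNA, Lam and DCA.

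The widest open region of Bdnf covered start 5, at chr2:109693002-109695167, with ATAC −log10 p of 19.2 in Sham and 21.6 in SNA, and 15.1 in Lam and 12.4 in DCA. In Sham, SNA and Lam this held the strongest ATAC peak of any of the 9 genes. ATAC peaks covered 178 of the 250 bases printed for start 5 in Sham and all 250 in SNA, Lam and DCA. Before start 3 they covered 121 bases in Sham and 212 in SNA, and 0 in Lam and 119 in DCA, so that Lam lacked this peak (chr2:109692224-109692630). The second region in all 4 lists, at chr2:109677065-109678405, had −log10 p of 9.4, 12.3, 9.8 and 14.4.

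Another Bdnf region in all 4 lists, at chr2:109673358-109674504, ended before start 1. Its −log10 p was 10.0 in Sham and 4.3 in SNA, and 8.6 in Lam and 4.4 in DCA. It reached 55 of the 250 printed bases of start 1 in SNA and 0 in the other lists. Values were higher in both control lists than in both axotomy lists, a description of 4 lists without replicates.

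Gdnf had 16 ATAC regions, of which 3 were in all 4 lists. The region at start 1 (chr15:7810113-7811378) began inside the gene, so that it covered 0 of the 250 printed bases in every list, and its −log10 p was 8.7 in Sham and 5.3 in SNA, and 7.3 in Lam and 8.8 in DCA. The strongest Gdnf ATAC peak was in SNA, 14.1 kb inside the gene, in the region chr15:7823433-7824524, with a −log10 p of 11.9 against 5.6 in Sham, 4.6 in Lam and 3.2 in DCA. All 4 lists held a peak in it.

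**Figure D4:**
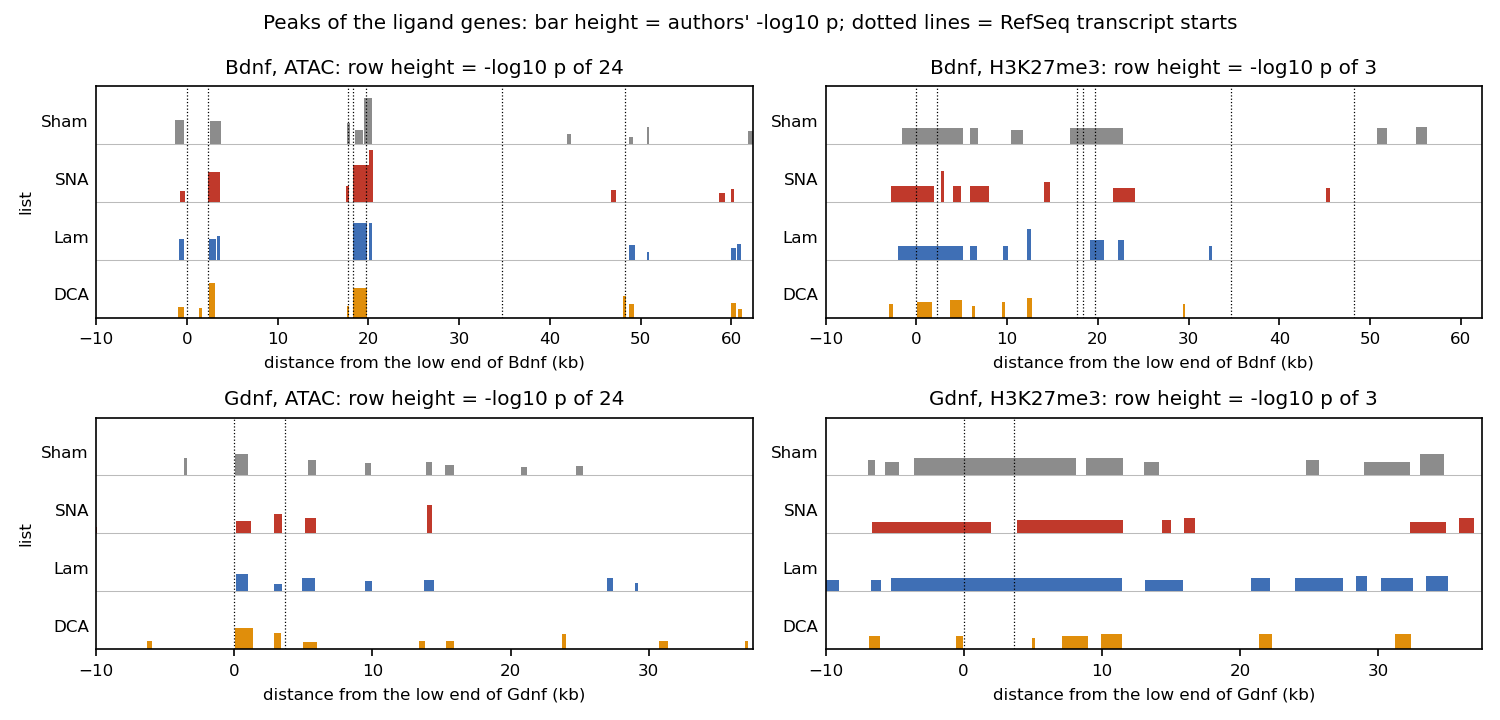
ATAC (left) and H3K27me3 (right) peaks of Bdnf and Gdnf by distance from the low end of each gene in kb, 1 row per list, with bar height the authors' −log10 p and dotted lines at RefSeq transcript starts. ATAC bars stand near the low end of both genes and at Bdnf start 5 in all 4 rows, with up to 21.6 at Bdnf, but not at every start. The H3K27me3 bars differ in width and reach at most 1.6.

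Any overlap of 1 bp or more made peaks of 2 lists partners, and the share of peaks with no partner was set beside that of the whole list. These shares mostly describe a few long genes. For H3K9ac, Ntrk2, Gfra1 and Gfra2 held 16, 10 and 18 of the 48 SNA peaks and 25, 14 and 16 of the 71 DCA peaks. Of the H3K9ac peaks of SNA at the 9 genes, 66.7% (32 of 48, interval 52.5 to 78.3) had no Sham partner, against 49.5% of the whole list. In the reverse direction 39.3% of Sham peaks had no SNA partner, against 22.0%. Of the DCA peaks 77.5% (55 of 71, 66.5 to 85.6) had no Lam partner, against 61.8%, and 32.0% of Lam peaks had no DCA partner, against 18.5%. Between the control lists 64.0% of Lam peaks (16 of 25, 44.5 to 79.8) had no Sham partner, against 40.8%, so the share at the 9 genes stood above that of the list there too. Of SNA peaks 35.4% had no DCA partner, against 28.3%.

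H3K9ac peaks of the 9 genes were also weaker than those of their list, with a median −log10 p of 3.45 against 4.19 in Sham and 4.20 against 4.73 in SNA, and 4.48 against 5.19 in Lam and 6.45 against 7.0 in DCA. Whether peak strength accounts for the shares was not tested. With equal list sizes 60.7% of SNA peaks and 73.5% of DCA peaks at the genes had no partner in their control. The share of the whole list was not computed at equal sizes.

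For H3K27ac, 79.6% of SNA peaks (43 of 54, 67.1 to 88.2) had no Sham partner, against 65.3% of the list, and 74.3% of Sham peaks had no SNA partner, against 42.6%. In DCA 43.3% (13 of 30, 27.4 to 60.8) had no Lam partner, against 27.9%, and 72.0% of Lam peaks had no DCA partner, against 53.4%. Between Lam and Sham the share was 68.0% (34 of 50, 54.2 to 79.2) against 54.4%, and between SNA and DCA 75.9% against 62.4%. Of 102 H3K27ac regions at the 9 genes 3 were in all 4 lists, or 2.94% against 13.6% of all regions. These merged regions lay just inside the Ntrk2 start, at and inside the start of Gfra1 and at the low end of Gfra2, and the peaks of single lists in them need not overlap each other. Another 2 (1.96%, against 2.32%) were in both axotomy lists alone and 6 (5.88%, against 2.55%) in both control lists alone.

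For H3K27me3 and ATAC the intervals held the share of the whole list for SNA and Lam peaks set against Sham and for DCA peaks set against Lam. H3K27me3 gave 65.0% against 70.5% for SNA and Sham, 56.2% against 61.6% for DCA and Lam, and 66.2% against 68.9% for Lam and Sham. The reverse shares were 62.4% against 68.7% in Sham and 81.2% against 78.9% in Lam, and SNA against DCA gave 81.7% against 77.6%. ATAC gave 58.5% (138 of 236, 52.1 to 64.6) against 59.6% for SNA and Sham, 59.0% (52.2 to 65.5) against 57.9% for DCA and Lam, and 64.7% (58.1 to 70.7) against 59.4% for Lam and Sham. In reverse, 46.2% of Sham peaks (39.2 to 53.4) had no SNA partner against 53.8%, so this interval lay below the share of the list, as it did for the H3K27me3 peaks of Sham without a Lam partner (53.2%, 43.9 to 62.3, against 64.2%). For ATAC, 60.6% of Lam peaks had no DCA partner, against 55.6%. SNA against DCA gave 59.3% against 55.6%.

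**Figure D5:**
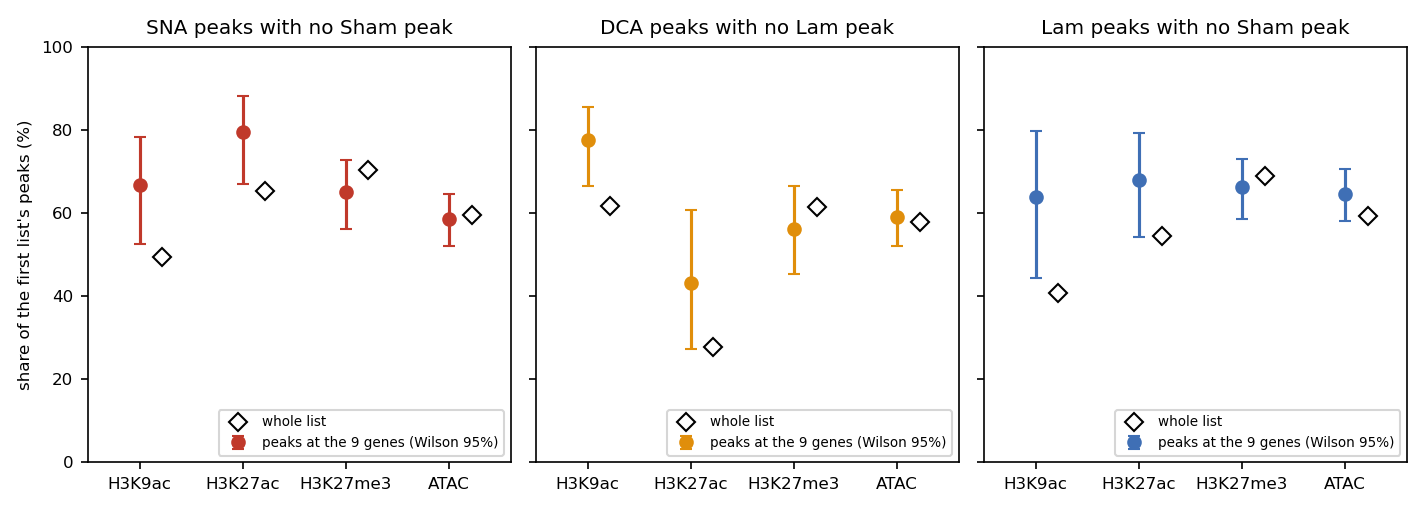
Share of the peaks of the first list with no overlapping peak in the second, for the peaks at the 9 genes (coloured dots, bars 95% Wilson intervals) and for the whole list (open diamonds), by assay. H3K9ac dots stand above their diamonds in all 3 panels, the control comparison included, and ATAC diamonds lie within the bars.

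Merged over the 4 lists, the 9 genes held 468 ATAC regions. Of these 41 (8.76%, against 10.0% of all regions) were in all 4 lists, 13 (2.78%, against 4.26%) in both axotomy lists alone and 12 (2.56%, against 2.62%) in both control lists alone. Of 90 H3K9ac regions 9 were in all 4 lists (10.0%, against 18.8%), 8 (8.89%, against 8.52%) in both axotomy lists alone and 0 in both control lists alone, where 0.366% of all regions stood. The 8 regions were 3 in Ntrk2, 3 in Gfra2 and 1 each in Ntrk3 and Gfra3.

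The overlap of the acetylation marks with open chromatin was counted within each surgery. Of the H3K9ac peaks 46.4% in Sham and 45.8% in SNA, and 40.0% in Lam and 40.8% in DCA overlapped an ATAC peak, against 48.4%, 44.1%, 47.6% and 39.9% of the lists. For H3K27ac the shares were 22.9% (12.1 to 39.0), 37.0%, 36.0% and 40.0% in the same order, against 39.8%, 41.9%, 41.2% and 43.1%. In the reverse view 7.0% of the ATAC peaks of the 9 genes overlapped H3K9ac in Sham and 9.7% in SNA, and 5.0% in Lam and 13.7% in DCA, against 14.1%, 16.9%, 13.0% and 20.6% of the lists.

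The rest of the 2 pathways was followed in 35 further genes: 6 ligands, 5 co-receptors and receptors of pro-forms, 19 adaptors and effectors, 4 feedback inhibitors and the protease Furin, which cleaves pro-neurotrophins. For H3K9ac 8 of 30 genes that could be called were higher in SNA and none lower, where 22.8% of all genes were higher, and 14 of 29 were higher in DCA and none lower, where 37.7% were higher. Higher after both axotomies were Ncam1, an alternative GDNF receptor, with 11 peaks in SNA and 5 in Sham and 18 in DCA and 7 in Lam, the adaptor genes Shc3 (13 and 4, 17 and 4) and Gab2 (7 and 3, 11 and 4), and Magi2 (10 and 5, 12 and 6). Sorcs2, which encodes a pro-neurotrophin receptor, had 47 H3K9ac peaks in DCA and 9 in Lam, but 25 in Sham.

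For H3K27ac 10 of 28 pathway genes were higher in SNA and 1 lower, led by the adaptor gene Gab1 with 67 peaks against 29 in Sham, where 37.5% of all genes were higher and 5.73% lower. In DCA none of 28 was higher and 1 lower, against 3.45% and 24.5%. For H3K27me3 2 of 25 were higher and 8 lower in SNA, against 19.0% and 22.3%, and 0 of 27 higher and 20 lower in DCA, against 4.32% and 60.9%. ATAC called 4 of 35 higher and none lower in SNA, against 13.1% and 4.66%, and 1 higher and 2 lower in DCA, against 8.92% and 6.74%. For H3K9ac the median log2 ratio of peak numbers (1 added to each) was taken over genes that could be called. Only for the 9 genes were those that could not be called kept, so their medians are not on the same footing. In SNA against Sham the median was 0.50 for 30 pathway genes, 0.00 for the 9 genes and 0.42 for all genes. The 5 of the 9 genes that could be called had ratios of -0.58 (Gfra3), 0.50 (Ntrk2), 0.58 (Ngfr), 0.65 (Gfra1) and 1.25 (Gfra2). In DCA against Lam the median was 0.74 for 29 pathway genes, 1.22 for the 9 genes and 0.58 for all genes. The 6 of the 9 genes that could be called there had ratios from 0.77 (Gfra2) to 2.58 (Ntrk3 and Gfra3).

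Genes with the peak numbers most like those of the 3 members richest in ATAC peaks were found by Pearson's r over the 16 lists, each assay centred, among 17451 genes with at least 16 peaks. Ntrk3 was closest to Sema5b (r = 0.923) and Adnp2 (0.892), and Gfra1 to Tcf7l1 (0.942) and Tec (0.940). Aff3 was among the genes closest to Ntrk2 (0.945). The 16 lists share their depth and size with every gene, so these values are a description of the lists.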

How the data were processed

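Peak lists of ChIP-seq (H3K9ac, H3K27ac, H3K27me3) and ATAC-seq from mouse dorsal root ganglia were analysed, 1 list for each of 4 assays and 4 surgeries. Per the labels' series text, each list was made from the pooled replicates of a group, and the build is mm10 per the submitters' processing notes. The aligner, peak caller, its settings and the read depth are not given in the sources used here, and inputs were not analysed here. Fold enrichment, as deposited, is how many times a peak stands over the background of the authors' caller. The deposited −log10 p and −log10 q are that caller's, and each value belongs to its own list. The deposited score was not used, and the summit offset, another deposited value, set no result. Repeated ATAC intervals were collapsed to the one with the highest −log10 p.

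Peaks were assigned to gene windows (body and 10 kb) of the RefSeq table for GRCm38.p6, which shares its coordinates with mm10, in Python 3.11.15 with pandas 2.3.3, NumPy 2.4.6 and SciPy 1.17.1, and figures were drawn with matplotlib 3.10.9. The table gives no exons or strand, so either gene end was examined where no promoter entry gave the start. The overlap and counting steps were tested on simulated lists with known answers. With 1 pooled list a group, no test between surgeries was made. Shares carry Wilson 95% intervals for counting error.

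The 9 genes, the pathway, marker and motif lists and the comparisons were chosen with earlier results of these data known. The rule named all 9 genes, with their peak numbers, strongest peaks and the regions present in all 4 lists, in both axotomy lists alone or in both control lists alone. Where such regions were many (ATAC, H3K27me3 and some of H3K9ac) they are given as counts, with those at a start or an end and the strongest named. Pathway genes are named where called after both axotomies or with the largest difference in a comparison. Alternatives were another overlap rule, stricter q limits, equal list sizes and other windows. A restriction to peaks on an ATAC peak of the same surgery was chosen after seeing the data. A gene of like pattern to Ntrk2 is not reported here.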

Additional observations from a re-analysis of the deposited data

How the results depend on the processing

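Window size was the choice that mattered least: with the gene body only or with 50 kb on either side, the share of unpartnered peaks stayed within its interval in all 12 cases each (4 assays, 3 comparisons). The overlap rule moved most shares. A reciprocal overlap of 50% raised them, to 83.3% for SNA, 95.8% for DCA and 92.0% for Lam, the last against Sham, for H3K9ac, 94.4% and 66.7% (SNA, DCA) for H3K27ac, 95%, 85.0% and 92.5% for H3K27me3 and 72.5%, 69.8% and 77.1% for ATAC. Counting peaks within 1 kb as shared lowered them, to 52.1% and 66.2% (SNA, DCA) for H3K9ac, 64.8%, 23.3% and 52.0% for H3K27ac, 40.0% and 55.0% (DCA, Lam) for H3K27me3 and 43.2%, 38.5% and 45.0% for ATAC. Among peaks at a −log10 q of 5 or more, the H3K9ac share was 100% in SNA (2 of 2 peaks) and 100% in DCA (28 of 28), H3K27ac gave 47.6% in Lam, and ATAC 77.4%, 85.2% and 50.0%. At that limit Sham and Lam held 0 H3K9ac peaks at the 9 genes, so no partner could be found there and these 2 shares tell nothing. The whole H3K9ac lists then held 8031 peaks in SNA and 2137 in Sham, and 42723 in DCA and 7108 in Lam. The share of the whole list without a partner was not computed at that limit. A q of at most 0.05 gave 81.0% in SNA and 80.0% in Lam for H3K9ac and 65.8% in DCA for ATAC, and left no H3K27me3 peak to count. Equal list sizes gave 44.0% in Lam for H3K27ac and 78.5%, 78.8% and 77.8% for H3K27me3, and peaks on open chromatin 84.4%, 70.0% and 81.8% for H3K27me3. The other shares stayed within their intervals, and the cause of these shifts was not tested.

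Calls of genes also moved. Shares of all genes called the same way at the same setting are given in brackets. In H3K9ac the number higher in SNA, 1 as reported (Gfra2), was 3 with a q of at most 0.05 (48.1%). It was 0 with equal sizes (8.06%), with 1 lower (12.1%), and 2 on open chromatin (19.5%). It stayed at 1 but was Ntrk2 at a −log10 q of 5 or more (68.5%) and Ntrk3 with 50 kb (18.7%). The 5 higher in DCA were 1 with equal sizes (11.6%), and 1 was lower on open chromatin (3.19%). In H3K27ac the 1 higher in SNA was 0 with equal sizes (15.8%) and 2 with the gene body only (38.1%). It was 2 with 50 kb (33.8%) and 3 on open chromatin (39.9%). The 2 lower were 1 with 50 kb (4.74%) and 0 on open chromatin (1.69%). In DCA the 2 lower for H3K27ac were 0 with equal sizes (11.0%), with 1 higher (9.35%). In H3K27me3 both q limits left 0 lower in SNA and 0 in DCA, since none of the 9 genes could then be called. Equal sizes gave 1 higher (20.0%) and 3 lower (28.8%) in SNA and 1 higher (17.5%) and 3 lower (42.1%) in DCA. In SNA the gene body gave 2 lower (22.7%) and 50 kb 0 lower (16.8%). Open chromatin gave 2 higher (18.6%) and 2 lower (32.1%) in SNA. For ATAC a −log10 q of 5 or more called 3 higher in SNA and 5 in DCA, where 27.6% and 16.1% of all genes were called higher. It also called Ntrk3 lower in Lam than in Sham (7.69%). A q of at most 0.05 (3.42%) and equal sizes (7.58%) each called 1 lower in SNA. For the genes called as reported, no difference in peak number changed sign at another setting. Some genes not called as reported were called in opposite directions. Gfra2 in DCA was higher for H3K9ac at both q limits and lower on open chromatin. For H3K27ac at a −log10 q of 5 or more Ntrk2 in SNA and Gfra2 in DCA were lower. Ntrk2 was higher with 50 kb and Gfra2 with equal sizes. In Lam against Sham, Ntrk2 for H3K9ac and Gfra2 for H3K27ac were also called both ways. No paired analysis was possible because the lists pool their replicates. Read depth is unknown, so a missing peak may be a peak below the authors' limit.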
